A study of Mus musculus with 6 samples.

Results

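The mRNA levels of 9 imprinted genes were described in the mouse cell line HL-1. The genes were Peg10, Peg3, H19, Gnas, Mest, Dlk1, Grb10, Impact and Meg3, chosen by symbol and found by Ensembl identifier among the 22246 genes of the expression table, where all 9 were present. They were chosen with their values in these libraries known, so their own levels and changes are a description and carry no test. The series held 6 RNA sequencing libraries, 3 labelled Smyd4 shRNA and 3 labelled control shRNA. An shRNA is a hairpin RNA that cells cut to a short guide against a chosen mRNA, and Smyd4 encodes a SET and MYND domain protein. Per the labels, both groups were HL-1 cells of C57BL/6 strain with heart as the tissue, and the established line HL-1 goes back to an atrial muscle tumour of a mouse. The labels used here give no shRNA sequence, vector, time after delivery or number of cultures, so the spread between libraries of a group may be technical.

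Most mammalian genes are read from both parental copies, whereas an imprinted gene is read mainly from the copy inherited from 1 parent. The parental copies are told apart by DNA methylation laid down in the egg or the sperm at control regions, which often govern several neighbouring genes at once, with maternally and paternally expressed genes side by side. Many imprinted genes act on fetal growth, the placenta and the size of tissue stem cell pools, and several are high in fetal heart and muscle and low in the adult. FPKM, the unit used below, is the number of fragments per kilobase of a gene after scaling for depth. It sums over both parental copies, so no value here says which copy was read.

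4 short sequences show what the genes with the clearest differences hold. Peg10 derives from a retrotransposon and keeps its slippery heptamer, at which ribosomes step back by 1 base and read on into a second frame. In the 6667-base Peg10 transcript of GENCODE M21 the heptamer starts at base 1477 and lies, with its flanks, at chr6:4755315-4755344 on the plus strand of GRCm38. The first frame holds 376 codons, and a step back by 1 base at the heptamer extends it to 1005 codons. The heptamer is in capitals.
Peg10 frameshift site: gaattcgccgccGGGAAACtccccggcccc
H19 is a non-coding RNA whose exon holds the precursor of miR-675. The mature forms, from RefSeq on GRCm38.p6, lie at chr7:142577112-142577133 and chr7:142577078-142577099 on the minus strand. Capitals mark the seed, bases 2 to 8, which pairs with target mRNAs. Each seed was held by 1 of 1738 mature mouse miRNAs of the table, so neither arm shares its seed with another listed miRNA.
mmu-miR-675-5p: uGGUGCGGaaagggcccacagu
mmu-miR-675-3p: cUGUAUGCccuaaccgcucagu
Peg3 and Usp29 are read in opposite directions from starts that are 164 bases apart in RefSeq, and their promoter windows share 263 of 300 bases. The Peg3 window, from 250 bases before to 50 bases after the start, is chr7:6730370-6730669 on the minus strand of GRCm38.p6. Capitals mark TGACGTCA, the palindromic cAMP response element, whose first base lies at position -178 from the start and which was searched on both strands after the sequence was seen.
Peg3 promoter: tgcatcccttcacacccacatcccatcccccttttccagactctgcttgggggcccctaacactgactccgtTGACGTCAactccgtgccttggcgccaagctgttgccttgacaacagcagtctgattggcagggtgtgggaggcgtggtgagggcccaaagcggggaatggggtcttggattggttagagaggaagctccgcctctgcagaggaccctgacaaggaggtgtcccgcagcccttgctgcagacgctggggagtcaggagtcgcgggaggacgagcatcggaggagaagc

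The palindrome was present in 1.79% of 32851 mouse promoter windows of the same length. Of the 9 genes, 6 had windows in the table, 13 in all, and 2 of the 13 held it, those of Peg3 and of 1 of the Meg3 starts. The Usp29 window holds the same copy. TGCCGC, the hexamer bound by the imprint-keeping zinc finger protein Zfp57 when methylated, was present in 11.6% of all windows. It was found in 4 of the 13 windows of the imprinted genes, at Meg3, Grb10 and 2 overlapping Mest starts, and its letters do not occur in the Peg3 window. The Peg3 window holds 13 CpG dinucleotides, against a median of 7 over all windows. A match of letters is a description of the sequence and shows no binding.

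Smyd4 itself was checked first. Its mRNA stood at 12.6, 12.3 and 11.9 FPKM in the libraries labelled Smyd4 shRNA, against 12.5, 12.8 and 13.5 FPKM in the control libraries. The ranges overlapped, and the mean was 12.3 ± 0.348 FPKM in the labelled libraries and 12.9 ± 0.539 FPKM in the control libraries (SD, n = 3 each; log2 change -0.07, limma, Benjamini-Hochberg adjusted p = 0.173). The exact permutation test, two-sided, gave p = 0.2, where 3 against 3 libraries can reach no less than 0.1. The mean was slightly lower, in the direction of the label, but no fall of Smyd4 mRNA was detected. Every direction below is thus relative to the label, not to a measured fall of Smyd4 mRNA. The labelled cell type was checked on 14 atrial cardiomyocyte markers, of which 12 were analysed. Of these, 8 were near 0 and under 1 FPKM in every library: Myh6, Myl7, Myl4, Actc1, Tnni3, Ryr2, Tbx5 and Gja5. The other 4, Nppb, Tnnt2, Nkx2-5 and Gata4, averaged 1 FPKM or more over all 6 libraries. The atrial myosin genes Myh6, Myl7 and Myl4 were thus near 0, while other cardiac markers were expressed. Reads recovered from the deposited values numbered 18460153 to 23478918 in the libraries labelled Smyd4 shRNA and 20798209 to 22450719 in the control libraries, over 19024 genes. In a bulk sample, fewer cells of a type and less RNA per cell cannot be told apart.

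The 9 genes split into 5 that were expressed and 4 that were near 0. In the libraries labelled Smyd4 shRNA the order from high to low was Peg10, Impact, H19, Peg3, Gnas, Mest, Grb10, Dlk1 and Meg3. Only Dlk1 could not be placed, since its range overlapped those of Grb10 and Meg3. Grb10 lay above Meg3 in FPKM, though both rest on as few as 1 read in a library. In the control libraries Impact led and Peg10 came next, followed by H19, Peg3, Gnas, Mest, Grb10, Meg3 and Dlk1. There Peg10 and H19 overlapped in range, with a ratio of means of 1.06, as did Meg3 and Dlk1. Peg10 and H19, which averaged 48.2 and 9.85 FPKM in the labelled libraries, thus stood at like levels of 19.8 and 18.7 FPKM in the control libraries.

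**Figure D1:**
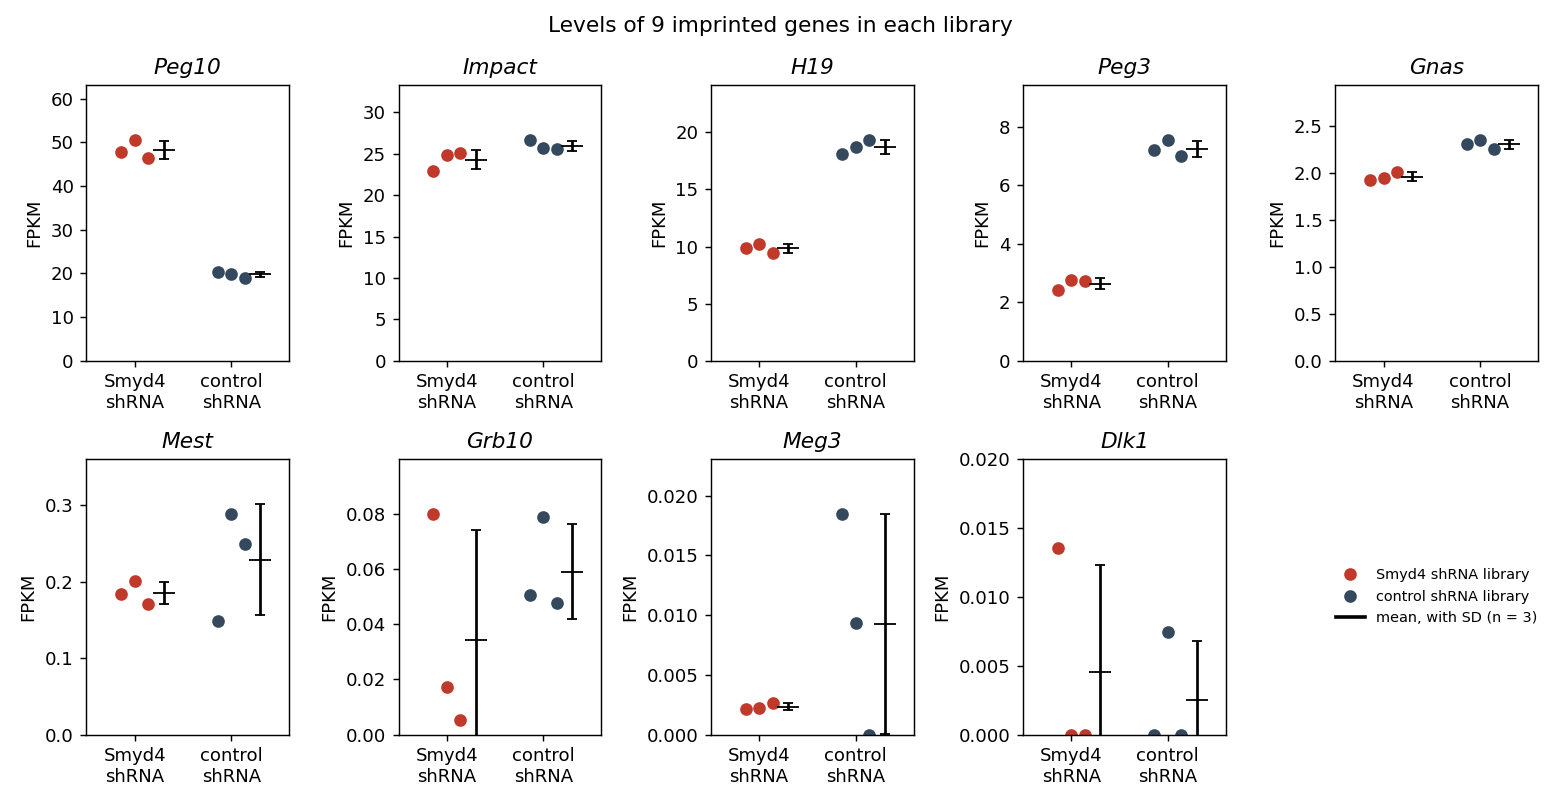
FPKM of each of the 9 imprinted genes (vertical axis, separate scale per gene, starting at 0), with 1 point per library and the mean with SD beside it (n = 3 per group), libraries labelled Smyd4 shRNA on the left and control libraries on the right. Peg10 lies between 46.3 and 50.5 FPKM in the labelled libraries, above all control libraries, H19 and Peg3 lie below them, and the lower row holds the 4 genes near 0.

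Of the 9 genes, 5 averaged 1 FPKM or more over all 6 libraries and so had a value in the comparison of all genes. In that comparison, limma on log2(FPKM + 0.5) with an adjusted p under 0.05, 1 of the 5 was higher (Peg10), 3 were lower (Peg3, H19 and Gnas) and 1 did not pass (Impact). As the 9 genes were chosen with these values known, their calls and intervals, here and below, describe them and test nothing. Over all 11325 genes tested, 48.3% passed, 25.1% higher and 23.3% lower. Calls at this threshold were thus common in these libraries, and the size of a change says more than its call. Called changes of at least 2-fold on the log2 scale made up 0.424% of all genes tested in the higher direction and 2.24% in the lower. Peg10 belonged to the first of these groups and Peg3 to the second, while H19 fell short of it.

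Peg10 encodes a gag-like protein needed for placental development, and is read from the paternal copy. It stood at 47.8, 50.5 and 46.3 FPKM in the libraries labelled Smyd4 shRNA, against 20.4, 19.8 and 19.1 FPKM in the control libraries. The groups did not overlap, and the lowest labelled library lay far above the highest control library. The mean was 48.2 ± 2.11 FPKM in the labelled libraries and 19.8 ± 0.669 FPKM in the control libraries (SD, n = 3 each), a 2.44-fold ratio and a log2 change of 1.27 (standard error 0.04). These values rest on 8324, 8509 and 6398 reads in the labelled libraries and 3253, 3132 and 3222 reads in the control libraries. In rank, Peg10 stood above 94.4% of all genes of the table in the labelled libraries and above 85.7% in the control libraries. The gene, ENSMUSG00000092035, spans chromosome 6 from 4747306 to 4760517 on the plus strand of GRCm38, and no exon of it overlaps another annotated gene.

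Sgce, which encodes epsilon-sarcoglycan of the muscle membrane, starts 98 bases from Peg10 on the opposite strand and is also read from the paternal copy. It stood at 4.88, 5.04 and 4.90 FPKM in the libraries labelled Smyd4 shRNA, against 5.48, 5.78 and 5.82 FPKM in the control libraries. Sgce was lower, at 4.94 ± 0.0878 FPKM in the labelled libraries and 5.69 ± 0.185 FPKM in the control libraries (SD, n = 3 each; log2 change -0.19, limma, adjusted p = 0.00688). The neighbours thus went in opposite directions, and the ratio of Peg10 to Sgce was 9.76 ± 0.278 in the labelled libraries and 3.47 ± 0.227 in the control libraries. Farther out in the same domain are paraoxonase genes, which encode lactone-hydrolysing enzymes and are imprinted in few tissues. Pon3 was lower, at 8.72 ± 0.0843 FPKM in the labelled libraries and 10.4 ± 0.248 FPKM in the control libraries (log2 change -0.24, limma, adjusted p = 0.000545). Pon2 averaged 9.56 ± 0.154 FPKM in the labelled libraries and 9.21 ± 0.111 FPKM in the control libraries and did not pass (limma, adjusted p = 0.227). Asb4 and Ppp1r9a, of the same domain, had at most 0.101 and 0.0033 FPKM in any library.

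Peg10 belongs to a set of genes that mammals derived from retrotransposon gag sequences. Of 13 such relatives, 9 were analysed and 4 had a mean of at least 1 FPKM, and none of the 4 passed the threshold in either direction. Rtl8a averaged 6.03 ± 0.427 FPKM in the libraries labelled Smyd4 shRNA and 5.21 ± 0.629 FPKM in the control libraries (log2 change 0.20, limma, adjusted p = 0.0825), with overlapping ranges. Rtl8b averaged 6.60 ± 1.10 FPKM in the labelled libraries and 6.03 ± 0.511 FPKM in the control libraries (limma, adjusted p = 0.449). These are near-identical gene copies, so counting could split reads between them. Rtl8a passed without replicate 1 of the control libraries (adjusted p = 0.0133), with quantile normalization (adjusted p = 0.0477) and with the replicate block (adjusted p = 0.0165), and Rtl8b passed without replicate 2 of the labelled libraries (adjusted p = 0.0257). Rtl8c lay on the other side, at 1.68 ± 0.217 FPKM in the labelled libraries and 2.41 ± 0.766 FPKM in the control libraries, and did not pass (log2 change -0.39, limma, adjusted p = 0.128). Arc, the relative known for RNA transfer between neurons, averaged 2.68 ± 0.154 FPKM in the labelled libraries and 2.48 ± 0.143 FPKM in the control libraries and did not pass (limma, adjusted p = 0.269). Of the relatives under the filter, Pnma2 is listed as lower in the authors' deposited table (log2 fold change -0.58) and did not pass when every gene was fitted (limma without a filter, adjusted p = 0.0648).

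Peg3 encodes a large zinc finger protein expressed from the paternal copy and known in mice for maternal behaviour, fetal growth and as a marker of tissue stem cells. It stood at 2.42, 2.77 and 2.73 FPKM in the libraries labelled Smyd4 shRNA, against 7.20, 7.55 and 7.01 FPKM in the control libraries. Every labelled library lay below every control library, with a wide gap between the groups. The mean was 2.64 ± 0.195 FPKM in the labelled libraries and 7.25 ± 0.276 FPKM in the control libraries (SD, n = 3 each), 2.75-fold lower, with a log2 change of -1.31 (standard error 0.06). Reads numbered 841, 934 and 753 in the labelled libraries and 2295, 2384 and 2367 in the control libraries. Peg3, ENSMUSG00000002265, spans chromosome 7 from 6703892 to 6730431 on the minus strand of GRCm38, free of exonic overlap with other genes.

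Both analysed neighbours of Peg3 were lower too, though each was near 0. Zim1, a zinc finger gene read from the maternal copy, lies 7441 bases from Peg3 and had 7, 14 and 6 reads in the libraries labelled Smyd4 shRNA, against 85, 90 and 90 reads in the control libraries. Its level was 0.0474 ± 0.0204 FPKM in the labelled libraries and 0.465 ± 0.0183 FPKM in the control libraries (SD, n = 3 each). The ratio of its pooled reads, scaled for depth, was 0.103 with an exact 95% interval of 0.0667 to 0.153, which covers counting error only. Usp29, read from the paternal copy and encoding a deubiquitinating enzyme, starts beside Peg3 and had 4, 2 and 7 reads in the labelled libraries, against 29, 18 and 34 in the control libraries. Its pooled ratio was 0.162 (exact 95% interval 0.0829 to 0.294), and 14.8% of its exonic bases overlap other annotated genes, which were not analysed here. Both genes were under the filter on low values and passed when every gene was fitted (limma without a filter, adjusted p = 0.000182 for Zim1 and 0.0413 for Usp29), a fit in which 13.7% of all 22246 genes were lower. The authors' deposited table lists both as lower, with a log2 fold change of -2.06 for Zim1 and -0.99 for Usp29, and it holds 25.2% of all genes. A maternally and a paternally expressed neighbour of Peg3 thus lay on the same side as Peg3 itself.

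H19 is read from the maternal copy, is abundant in fetal tissues, carries miR-675 and binds several RNA-binding proteins. It stood at 9.89, 10.2 and 9.41 FPKM in the libraries labelled Smyd4 shRNA, against 18.1, 18.7 and 19.3 FPKM in the control libraries. The groups did not overlap, and both were tight. The mean was 9.85 ± 0.420 FPKM in the labelled libraries and 18.7 ± 0.621 FPKM in the control libraries (SD, n = 3 each), 1.90-fold lower, with a log2 change of -0.89 (standard error 0.04). Reads numbered 613, 614 and 462 in the labelled libraries and 1026, 1050 and 1162 in the control libraries. H19, ENSMUSG00000000031, a long intergenic RNA in GENCODE M21, spans chromosome 7 from 142575529 to 142578143 on the minus strand. The miR-675 precursor takes 84 of its exonic bases, and mature miR-675 was not analysed here.

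Igf2, the paternally expressed fetal growth factor that shares enhancers with H19, lies 72622 bases from it and was near 0. It had 23, 15 and 0 reads in the libraries labelled Smyd4 shRNA, against 23, 85 and 34 reads in the control libraries. The ranges in FPKM did not overlap, but the control libraries differed widely among themselves, between 0.168 and 0.627 FPKM, and Igf2 did not pass when every gene was fitted (limma without a filter, adjusted p = 0.163). Of its exonic bases, 64.5% overlap other annotated genes. Of 6 partners of the H19 RNA, 5 were analysed and 4 had values in the comparison, of which 2 were higher and 2 did not pass. Among all genes tested 25.1% were higher. Igf2bp1, an RNA-binding protein of fetal cells that binds H19 and Igf2 transcripts, was higher, at 1.26 ± 0.0235 FPKM in the labelled libraries and 0.831 ± 0.0726 FPKM in the control libraries (log2 change 0.40, limma, adjusted p = 0.00764). With a control mean under 1 FPKM it met the filter through the labelled libraries, and it also passed when every gene was fitted (limma without a filter, adjusted p = 0.0152); its log2 change was 0.62 with quantile normalization. Its paralog Igf2bp2 averaged 10.9 ± 0.199 FPKM in the labelled libraries and 10.2 ± 0.219 FPKM in the control libraries (log2 change 0.10, limma, adjusted p = 0.0357). The Igf2bp2 call was lost on leaving out any 1 of the 6 libraries, with adjusted p between 0.0596 and 0.121. It was also lost with median-of-ratios scaling and with the replicate block (limma, adjusted p = 0.0519 and 0.0650).

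**Figure D2:**
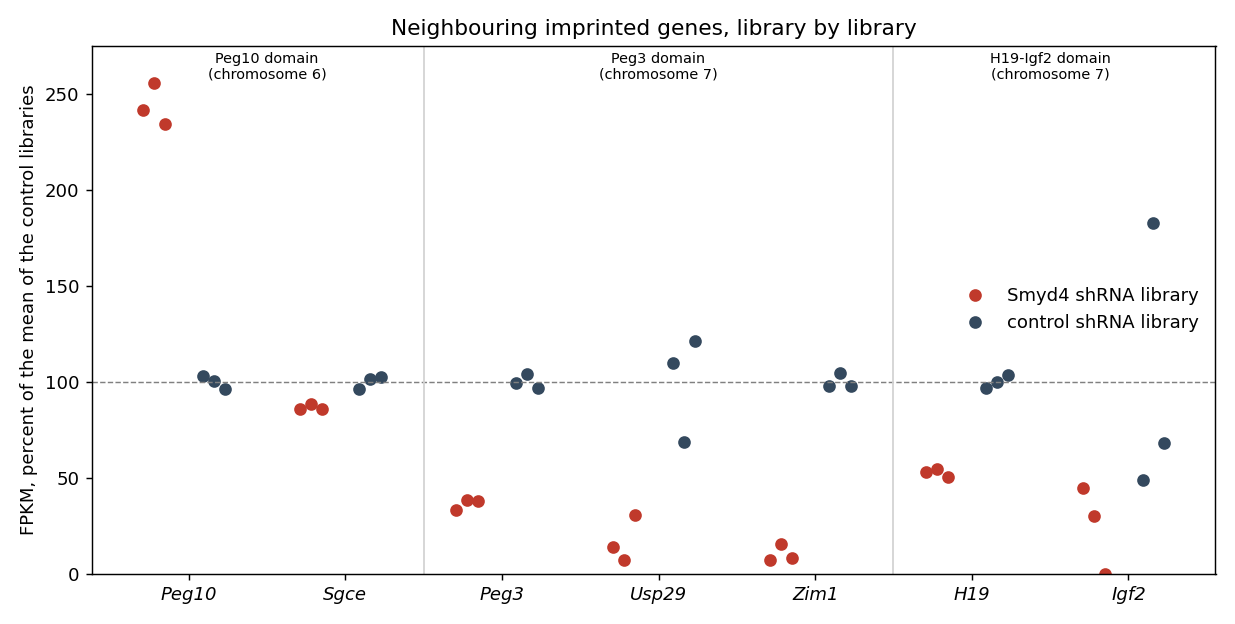
Level of Peg10, Peg3, H19 and neighbours in each library, as percent of the mean of the control libraries (vertical axis, FPKM-based, starting at 0), with 1 point per library and dashed line at 100 percent. Peg10 lies at 235 to 256 percent in the libraries labelled Smyd4 shRNA while its neighbour Sgce lies at 85.7 to 88.5 percent, and Peg3, Usp29 and Zim1 all lie at 38.2 percent or below; Usp29, Zim1 and Igf2 rest on few reads.

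Gnas encodes the stimulatory G protein alpha subunit, which links hormone receptors to adenylyl cyclase, together with several imprinted transcripts from other starts. It stood at 1.93, 1.95 and 2.01 FPKM in the libraries labelled Smyd4 shRNA, against 2.31, 2.35 and 2.26 FPKM in the control libraries. The groups did not overlap, which held for 57.8% of all genes tested, 30.2% with the labelled libraries higher and 27.6% with them lower, but the gap was small. The mean was 1.96 ± 0.0450 FPKM in the labelled libraries and 2.31 ± 0.0453 FPKM in the control libraries (SD, n = 3 each), a ratio of 0.851 and a log2 change of -0.19 (standard error 0.06). Reads numbered 563, 550 and 466 in the labelled libraries and 617, 623 and 641 in the control libraries, and the values do not tell its starts apart. The gene, ENSMUSG00000027523, spans chromosome 2 from 174284320 to 174346744 on the plus strand, and 2457 of its 11186 exonic bases overlap opposite-strand genes, of which Nespas had 3, 2 and 1 reads in the labelled libraries, against 9, 5 and 4 in the control libraries. The Gnas call was lost in 8 of 13 alternative settings. Among them were the omission of replicate 1 or 2 of the labelled libraries or of any control library.

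Of 12 genes that act with the Gnas product, 11 were analysed and 8 had values in the comparison, of which 0 were higher, 3 were lower and 5 did not pass. Shares over all genes tested were 25.1% higher and 23.3% lower. Adcy6, a main adenylyl cyclase of heart muscle, was lower, at 13.7 ± 0.543 FPKM in the libraries labelled Smyd4 shRNA and 17.7 ± 0.575 FPKM in the control libraries (log2 change -0.35, limma, adjusted p = 0.000196). Prkaca, the catalytic subunit of protein kinase A, was lower at 54.5 ± 1.89 FPKM in the labelled libraries and 65.6 ± 0.724 FPKM in the control libraries (log2 change -0.27, limma, adjusted p = 0.000224). Gnb1, a beta subunit that pairs with the Gnas product, was lower at 111 ± 4.10 FPKM in the labelled libraries and 129 ± 1.70 FPKM in the control libraries (log2 change -0.21, limma, adjusted p = 0.000879). The median change over the 8 genes was -0.03, against 0.02 over all genes tested.

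Impact, a paternally expressed gene in mice, encodes an inhibitor that competes with the kinase Gcn2 for its activator Gcn1 and so dampens the response to amino acid shortage. It stood at 23.0, 24.8 and 25.1 FPKM in the libraries labelled Smyd4 shRNA, against 26.6, 25.6 and 25.6 FPKM in the control libraries. The highest labelled library lay just under the lowest control library. The mean was 24.3 ± 1.16 FPKM in the labelled libraries and 26.0 ± 0.582 FPKM in the control libraries (SD, n = 3 each), a ratio of 0.936 and a log2 change of -0.09 with a 95% interval of -0.19 to -0.0042. It did not pass the threshold over all genes, and no read number could be recovered for it. Of 4 genes of its pathway, 3 were analysed, with 1 higher, 1 lower and 1 not passed, where 48.3% of all genes tested passed. Eif2s1, the initiation factor subunit that Gcn2 phosphorylates, was higher at 63.0 ± 1.55 FPKM in the labelled libraries and 56.7 ± 1.67 FPKM in the control libraries (log2 change 0.15, limma, adjusted p = 0.00494). Eif2ak4, which encodes Gcn2, was lower at 4.41 ± 0.111 FPKM in the labelled libraries and 4.99 ± 0.0198 FPKM in the control libraries (log2 change -0.16, limma, adjusted p = 0.0124).

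The other 4 genes were under 1 FPKM in every library, as were 45.6% of all genes of the table. Mest, a paternally expressed gene of the hydrolase fold known in adipose and muscle growth, had 19, 20 and 14 reads in the libraries labelled Smyd4 shRNA, against 14, 27 and 25 reads in the control libraries. The groups overlapped, and the pooled ratio of 0.813 had an exact 95% interval of 0.555 to 1.18. Copg2, a coat protein gene of Golgi vesicles that overlaps the end of Mest by 912 bases on the opposite strand, averaged 8.51 ± 0.241 FPKM in the labelled libraries and 8.45 ± 0.220 FPKM in the control libraries and did not pass (log2 change 0.01, limma, adjusted p = 0.865). Grb10, an adaptor that binds insulin and IGF1 receptors and restrains their signalling, had 19, 4 and 1 reads in the labelled libraries, against 11, 17 and 11 reads in the control libraries. The labelled libraries differed more among themselves than the groups did, and the pooled ratio was 0.623 (exact 95% interval 0.358 to 1.06). No difference of Mest or Grb10 was detected at these read numbers, and both intervals include 1.

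Of 6 partners and relatives of Grb10, 4 had values in the comparison, of which 2 were higher and 1 was lower. Irs1, the main docking protein of the insulin receptor, was higher at 20.2 ± 0.760 FPKM in the libraries labelled Smyd4 shRNA and 17.5 ± 0.577 FPKM in the control libraries (log2 change 0.20, limma, adjusted p = 0.00301). Irs2, a second docking protein, averaged 3.22 ± 0.103 FPKM in the labelled libraries and 2.80 ± 0.111 FPKM in the control libraries (log2 change 0.17, limma, adjusted p = 0.0312). Igf1r, the IGF1 receptor, averaged 4.21 ± 0.192 FPKM in the labelled libraries and 4.66 ± 0.0176 FPKM in the control libraries (log2 change -0.13, limma, adjusted p = 0.0436). The Irs2 call was lost without replicate 1 or 3 of the labelled libraries or replicate 1 or 2 of the control libraries (adjusted p 0.0633 to 0.0998). The Igf1r call was lost without any 1 library other than replicate 2 of the labelled libraries (adjusted p 0.0879 to 0.123). Without a filter and with the replicate block, Irs2 also lost its call (limma, adjusted p = 0.0732 and 0.0508). So did Igf1r without a filter, with quantile normalization and with the replicate block (limma, adjusted p = 0.0823, 0.113 and 0.0758). Over all 5 partner lists, 23 genes had values, 5 higher, 5 lower and 13 not passed. These counts lie near the shares over all genes tested, 25.1% higher and 23.3% lower. Without replicate 1 of the labelled libraries 3 partners were higher, and without replicate 2 of the control libraries 3 were higher.

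Dlk1 and Meg3 sit 77664 bases apart on chromosome 12 in a domain active in embryos and placenta. Dlk1, a paternally expressed Notch-like membrane protein known from fat and muscle precursors, had 2, 0 and 0 reads in the libraries labelled Smyd4 shRNA, against 0, 1 and 0 reads in the control libraries. Meg3, the maternally expressed non-coding RNA of the domain, had 1, 1 and 1 reads in the labelled libraries, against 8, 4 and 0 reads in the control libraries. Both were at the edge of detection in all 6 libraries, and 1 control library had no Meg3 read. Rian, a maternally expressed RNA of the same domain that hosts small nucleolar RNAs, had at most 0.00724 FPKM in any library, and the miRNA host Mirg at most 0.0105 FPKM. The analysed genes of the domain were thus nearly silent at this depth in both groups; Rtl1 and Dio3 were not analysed here.

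Imprinted genes other than the 9 leaned lower. Of 66 further imprinted genes on 2 lists, 52 were analysed and 25 had a mean of at least 1 FPKM, of which 3 were higher, 14 were lower and 8 did not pass; over all genes tested 23.3% were lower. Their median log2 change was -0.14, against 0.02 over all 11325 genes tested. Of 35 genes listed as imprinted in most tissues, 8 had values in the comparison, with 1 higher, 4 lower and 3 not passed. Of 31 genes listed as imprinted in few tissues, 17 had values, with 2 higher, 10 lower and 5 not passed. By parent, 7 paternally expressed genes gave 1 higher and 3 lower, and 18 maternally expressed genes gave 2 higher and 11 lower, so the lower calls came from both parental classes. The lists were compiled with earlier results of these data known, and the counts are a description.

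Among the widely imprinted genes, Peg13, a paternally expressed non-coding RNA, was lower at 3.10 ± 0.173 FPKM in the libraries labelled Smyd4 shRNA and 4.63 ± 0.191 FPKM in the control libraries (log2 change -0.51, limma, adjusted p = 0.000172). Trappc9, the transport complex gene in whose intron Peg13 lies, is on the list of genes imprinted in few tissues. It was higher at 7.77 ± 0.249 FPKM in the labelled libraries and 6.46 ± 0.194 FPKM in the control libraries (log2 change 0.25, limma, adjusted p = 0.00146). As with Peg10 and Sgce, the pair of neighbours went in opposite directions. H13, a signal peptide peptidase gene, was lower at 12.3 ± 0.331 FPKM in the labelled libraries and 14.9 ± 0.0841 FPKM in the control libraries (log2 change -0.27, limma, adjusted p = 0.000234). Mcts2, which lies within H13 and is read from the paternal copy, averaged 8.73 ± 0.298 FPKM in the labelled libraries and 8.71 ± 0.194 FPKM in the control libraries and did not pass (limma, adjusted p = 0.94). Zrsr1, a splicing factor gene within Commd1, was higher at 4.25 ± 0.25 FPKM in the labelled libraries and 3.48 ± 0.112 FPKM in the control libraries (log2 change 0.25, limma, adjusted p = 0.00618). Igf2r, the receptor that clears IGF2, averaged 10.5 ± 0.439 FPKM in the labelled libraries and 11.7 ± 0.275 FPKM in the control libraries (log2 change -0.15, limma, adjusted p = 0.0168), a call lost without replicate 2 of the control libraries (adjusted p = 0.0610).

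Among the genes imprinted in few tissues, Dcn, the matrix proteoglycan decorin, was far the lowest in the labelled libraries relative to control. It stood at 2.11, 1.56 and 1.51 FPKM in the libraries labelled Smyd4 shRNA, against 26.0, 25.4 and 27.3 FPKM in the control libraries (log2 change -3.60, limma, adjusted p = 9.15e-08). Gatm, the first enzyme of creatine synthesis, was lower at 24.5 ± 0.596 FPKM in the labelled libraries and 36.9 ± 1.16 FPKM in the control libraries (log2 change -0.58, limma, adjusted p = 3.97e-06). Cd81, a tetraspanin at the edge of the Kcnq1 domain, was lower at 59.6 ± 0.758 FPKM in the labelled libraries and 70.5 ± 2.41 FPKM in the control libraries (log2 change -0.24, limma, adjusted p = 0.000383). Tnfrsf23 of the same domain and Ampd3, an AMP deaminase gene, had log2 changes of -0.24 and -0.27 (limma, adjusted p = 0.000568 and 0.00167). The imprinting of these genes is known mainly from placenta.

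**Figure D3:**
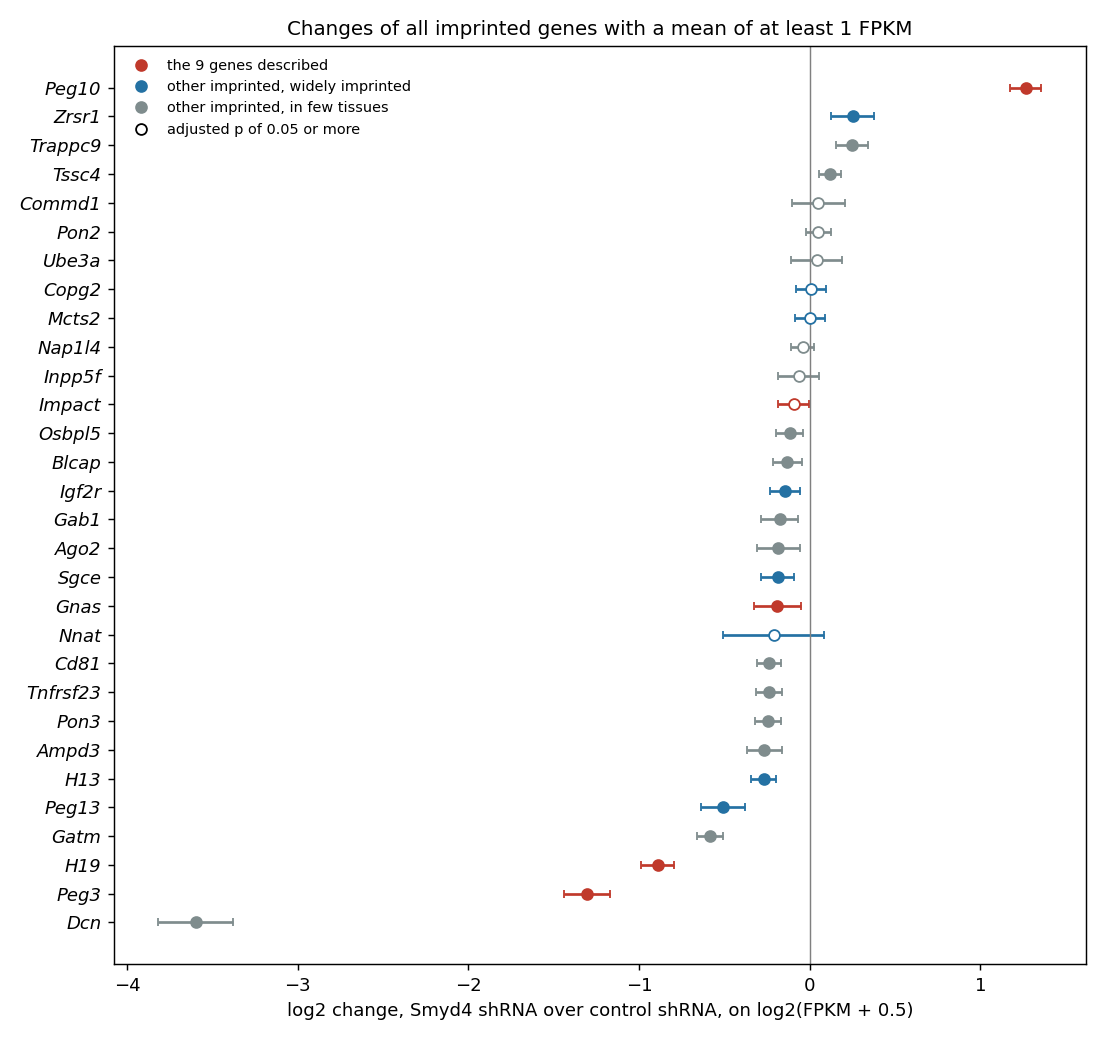
Log2 change of the 30 imprinted genes that averaged 1 FPKM or more, libraries labelled Smyd4 shRNA over control libraries on the log2(FPKM + 0.5) scale (horizontal axis), with 95% intervals from limma; red marks the described genes, blue genes imprinted in most tissues, grey genes imprinted in few, and open circles an adjusted p of 0.05 or more. Peg10 stands apart on the right at 1.27, Dcn on the left at -3.60, and most other genes lie between -0.58 and 0.25.

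Of 21 genes that set or keep imprints, 19 were analysed and 16 had values in the comparison, with log2 changes between -0.23 and 0.15, 3 higher, 2 lower, 11 not passed and a median log2 change of 0.07. With 25.1% higher and 23.3% lower over all genes tested, calls were not more frequent among these factors in this comparison. Uhrf1, which brings the maintenance methyltransferase to newly copied DNA, was higher at 70.4 ± 1.62 FPKM in the libraries labelled Smyd4 shRNA and 63.2 ± 1.61 FPKM in the control libraries (log2 change 0.15, limma, adjusted p = 0.00338). Ctcf, the insulator protein bound between H19 and Igf2 on the maternal copy, was higher at 25.7 ± 0.830 FPKM in the labelled libraries and 23.2 ± 1.02 FPKM in the control libraries (log2 change 0.15, limma, adjusted p = 0.0158). Ehmt2, a histone H3 lysine methyltransferase, was lower at 35.2 ± 1.09 FPKM in the labelled libraries and 41.4 ± 0.249 FPKM in the control libraries (log2 change -0.23, limma, adjusted p = 0.000367). Trim28 and Setdb1, which act with Zfp57 at imprinted control regions, had log2 changes of 0.10 and -0.11 (limma, adjusted p = 0.0269 and 0.0401). Dnmt1, the maintenance methyltransferase, averaged 45.5 ± 1.53 FPKM in the labelled libraries and 43.0 ± 0.564 FPKM in the control libraries and did not pass (limma, adjusted p = 0.0688), nor did Zfp57 itself, at 4.61 ± 0.138 FPKM in the labelled libraries and 4.41 ± 0.178 FPKM in the control libraries (limma, adjusted p = 0.356).

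The counts of these factors rest on single libraries and on the settings of the fit. Without replicate 2 of the labelled libraries 5 were higher, and without replicate 1 of the labelled libraries or any 1 control library 1 was lower. Trim28 lost its call without replicate 1 of the labelled libraries or replicate 2 or 3 of the control libraries (adjusted p 0.0639 to 0.0825), and Setdb1 without any 1 library other than replicate 2 of the labelled libraries (adjusted p 0.0515 to 0.117). With all 6 libraries, Trim28 also lost its call with no trend (limma, adjusted p = 0.0601). Setdb1 lost its call without a filter, with quantile normalization, with no trend and with the replicate block (limma, adjusted p = 0.0642, 0.0700, 0.0504 and 0.0611).

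**Figure D4:**
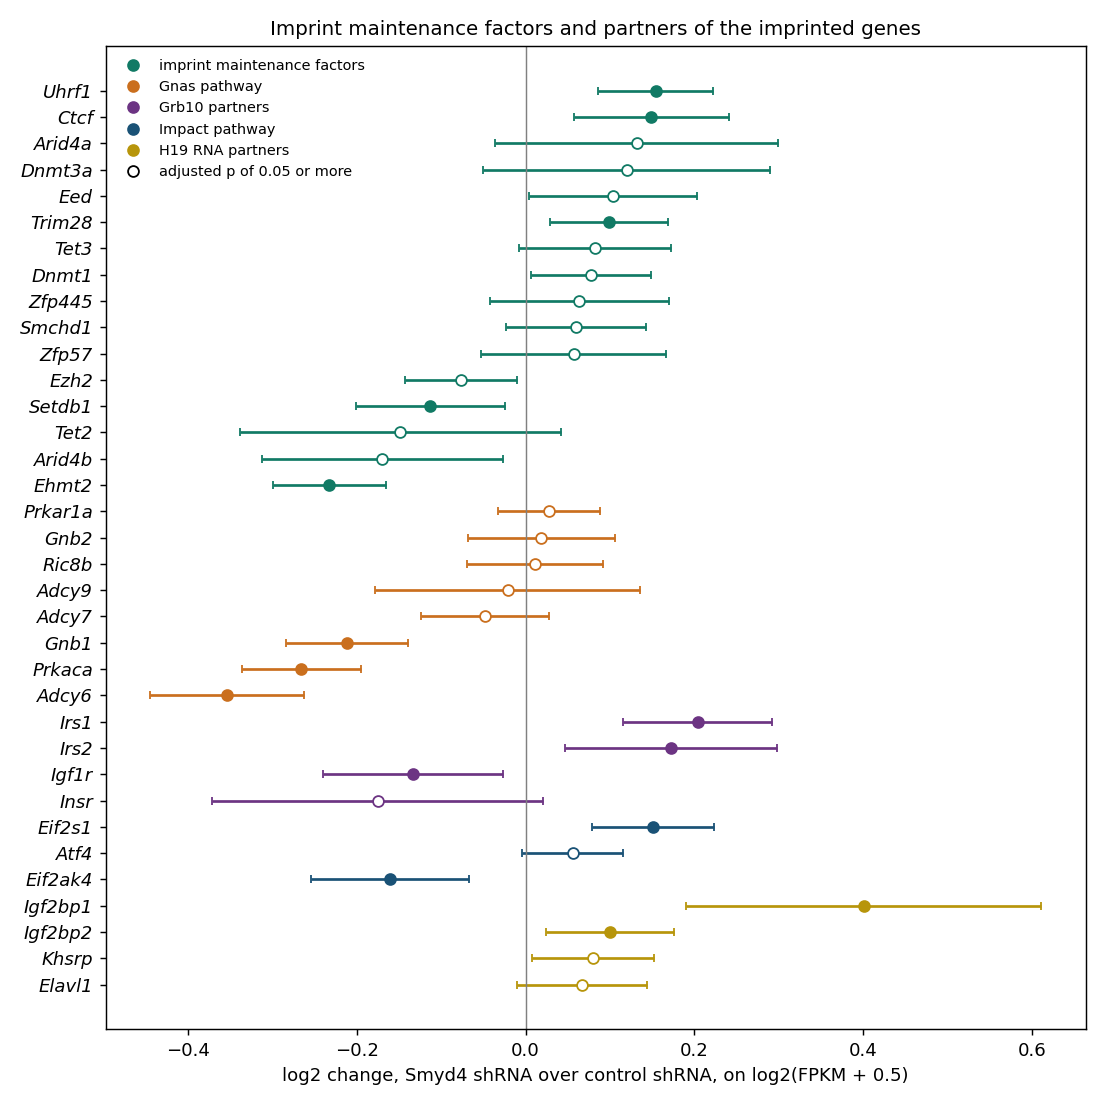
Log2 change of imprint maintenance factors and of partners of Gnas, Grb10, Impact and the H19 RNA that averaged 1 FPKM or more, libraries labelled Smyd4 shRNA over control libraries on the log2(FPKM + 0.5) scale (horizontal axis), with 95% intervals from limma and open circles for an adjusted p of 0.05 or more. Adcy6, Prkaca and Gnb1 of the Gnas pathway lie at -0.35, -0.27 and -0.21, and Irs1 lies at 0.20; Igf2bp1, at 0.40, met the minimum through the labelled libraries.

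The genes whose profile over the 6 libraries was nearest to H19 were Arhgap42, Gypc and Ugcg. Likeness was the root mean square distance between log2(FPKM + 0.5) profiles, each centred on its own mean, over 7421 genes that averaged 5 FPKM or more. Arhgap42 lay at a distance of 0.0188, with 5.31 ± 0.164 FPKM in the libraries labelled Smyd4 shRNA and 10.4 ± 0.385 FPKM in the control libraries. Gypc, glycophorin C of the membrane skeleton, lay at 0.0272, with 8.32 ± 0.292 FPKM in the labelled libraries and 16.1 ± 0.620 FPKM in the control libraries. Ugcg, the glucosylceramide synthase gene, lay at 0.0323, with 26.8 ± 0.911 FPKM in the labelled libraries and 52.2 ± 1.30 FPKM in the control libraries. For Peg10 the nearest were Tinagl1, Loxl4 and Tmem176b, at 0.0436, 0.0527 and 0.0636. The distances measure mainly the size of the difference between the groups, since 6 libraries in 2 groups hold little else.

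Levels of cell type markers were summed by list, and their part in the changes above was not tested. Of the lists with more than 1 tested marker, only that of skeletal muscle moved in 1 direction. Among all genes tested, 25.1% were higher and 23.3% lower. Over 7 skeletal muscle markers the summed level was 21.2 to 23.2 FPKM in the libraries labelled Smyd4 shRNA and 86.0 to 88.3 FPKM in the control libraries, with all 4 tested members lower and Pax7 and Myh3 near 0. The 12 analysed atrial cardiomyocyte markers summed to 28.4 to 30.2 FPKM in the labelled libraries and 20.5 to 22.2 FPKM in the control libraries, with 3 higher and 1 lower. The 6 fibroblast markers summed to 269 to 280 FPKM in the labelled libraries and 211 to 220 FPKM in the control libraries, with 2 higher, 1 lower and 1 not passed, and Thy1 and Postn near 0. The 4 macrophage markers summed to 1.78 to 1.90 FPKM in the labelled libraries and 1.86 to 2.15 FPKM in the control libraries, with Adgre1, Ptprc and Csf1r near 0. The 3 endothelial markers summed to at most 0.485 FPKM and the 2 analysed trophoblast markers to at most 1.14 FPKM in any library, and the pluripotency marker Nanog to at most 0.237 FPKM.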

How the data were processed

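Trizol RNA went into libraries made with Illumina protocols, per the labels' protocols. Whether counting used strand, and the authors' counter and test, are not given in these sources. Per the submitters' processing notes, TopHat2 2.0.9, Bowtie2 2.0.6 and GRCm38 were used. The authors deposited FPKM for 22246 genes, 1 column per library, and a comparison table of 5616 genes with a normalized signal per library, log2 fold changes and adjusted p-values, all with adjusted p of 0.0499 or less. For genes of both tables the deposited FPKM were 1 constant times the normalized signal per gene length, so the scaling is by the authors' size factors and not by library totals. Read numbers were recovered from whole steps in the deposited signal (100% whole within 1e-04) and from FPKM times gene length (within 0.01); in replicate 1 of the control libraries a read was worth 1.01 signal units, too near 1 for the recovery to pass a check of units, so read numbers of that library are less sure and no count test was run. Counting intervals and read numbers cover counting error only.

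FPKM were transformed to log2(FPKM + 0.5), which understates changes of low genes, filtered at a mean of 1 FPKM and compared with limma 3.58.1 (R 4.3.3, empirical Bayes with trend), with Benjamini-Hochberg adjustment over all genes tested and a threshold of 0.05. Simulated data with independent replicates and few changed genes served only to check the code. They say nothing on how far the spread between these libraries is technical. The 9 genes, the lists, rules and tests were chosen with earlier results of these data known. Genes named were the 9 genes, their domain neighbours, and per list those that passed with the smallest adjusted p, up to 6, or the 2 with the highest mean; Mcts2, Rtl8c, Pnma2, Arc, Dnmt1 and Zfp57 were added after their values were seen. Symbols matched for 22134 genes. Gene coordinates and gene types are those of GENCODE M21, and sequences are from RefSeq and GENCODE. Alternatives were other pseudocounts, filters and scalings, no trend, the replicate block and each library left out.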

Additional observations from a re-analysis of the deposited data

How the results depend on the processing

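Of 579 alternative values over 42 named genes, 528 kept direction and side of the threshold, 44 kept direction but no longer passed (7 genes), 4 came to pass (2 genes) and 3 changed sign. The changes of sign were all of Copg2, which passed in none of these settings, with -0.0020 under median-of-ratios scaling and -0.012 to 0.025 with 1 library left out. Peg10 ranged from 1.23 to 1.29, H19 from -0.92 to -0.86 and Peg3 from -1.43 to -1.18 on the log2 scale over the alternatives. The total of called genes and the counts of further imprinted genes (2 to 3 higher, 11 to 18 lower) stayed within 1.5 times. The numbers tested differed between settings, so the counts have no common base. Without a filter 18 of 52 were lower, where 13.7% of all genes were lower. With a minimum of 5 FPKM 11 of 17 were lower, where 1933 of 7833 genes were lower.

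Imprint maintenance factors that were higher numbered 5 of 19 tested without a filter, where 11.6% of all 22246 genes were higher. With quantile normalization they numbered 6 of 16, where 3163 of 11325 genes were higher. In both settings the share of factors that were higher lay above that over all genes, unlike in the main comparison. With 1 library left out, 2 to 5 were higher. Those that were lower numbered 4 of 16 with median-of-ratios scaling, where 2787 of 11325 genes were lower. They numbered 1 with quantile normalization, 1 with the replicate block, and 1 to 2 with 1 library left out. With a minimum of 5 FPKM, 3 partners were higher and 3 lower, where 2404 of 7833 genes were higher and 1933 lower. With 1 library left out, 3 to 5 partners were higher and 4 to 6 lower. The cause of these differences was not tested, except that the minimum of 5 FPKM left 15 partners to test. Replicate numbers are in the labels, but same-numbered libraries did not deviate together (r = -0.03, 0.02 and 0.01). The main comparison therefore used no pairing, though these values cannot show whether the libraries were prepared in pairs. With the replicate block 2667 genes were higher and 2474 lower. The edgeR and DESeq2 alternatives on recovered reads were not run, because the recovery for replicate 1 of the control libraries did not pass a check of units.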

Other observations

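Some imprinted genes and partners under the filter on low values, chosen after their values were seen, differed between the groups when every gene was fitted. In that fit 25.3% of all 22246 genes passed, 11.6% higher and 13.7% lower. Peg12, a paternally expressed gene of the Snrpn domain, had 0, 1 and 0 reads in the libraries labelled Smyd4 shRNA, against 16, 27 and 14 reads in the control libraries, a pooled ratio of 0.0178 (exact 95% interval 0.000442 to 0.103; limma without a filter, adjusted p = 0.00590). Snrpn of the same domain averaged 0.769 ± 0.188 FPKM in the labelled libraries and 0.681 ± 0.170 FPKM in the control libraries and did not pass (limma without a filter, adjusted p = 0.719). Tspan32, a tetraspanin gene of the Kcnq1 domain, had 68, 61 and 55 reads in the labelled libraries, against 135, 136 and 140 in the control libraries (pooled ratio 0.453, exact 95% interval 0.379 to 0.540; adjusted p = 0.00149). Grb14, the adaptor most like Grb10 in its role at the insulin receptor, had 16, 19 and 23 reads in the labelled libraries, against 156, 143 and 171 in the control libraries (log2 change -1.18, limma without a filter, adjusted p = 0.000154).

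Airn, the paternally expressed non-coding RNA that silences the paternal Igf2r in mice, had 67, 71 and 49 reads in the labelled libraries, against 41, 50 and 44 reads in the control libraries. It did not pass (log2 change 0.26, limma without a filter, adjusted p = 0.0790), while Igf2r was lower. Dnmt3b, a de novo methyltransferase, had 0.811 ± 0.0928 FPKM in the labelled libraries and 0.524 ± 0.0608 FPKM in the control libraries, and Tet1, which oxidises methylated cytosine, had 0.343 ± 0.0319 FPKM in the labelled libraries and 0.220 ± 0.0113 FPKM in the control libraries. Both were higher when every gene was fitted (limma without a filter, adjusted p = 0.0376 and 0.0372). Of all 22246 genes, 11.6% were higher in that fit.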
